A study of Rattus norvegicus with 6 samples.

Results

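The genes described here are 10 phagocytic and scavenger receptors and their ligands, which were taken by symbol from the 30957 genes of the gene table. They comprise the TAM receptors Axl, Mertk and Tyro3, the TAM ligands Gas6 and Pros1, the integrin bridge Mfge8, and the scavenger receptors Msr1, Mrc1, Cd163 and Cd36. All 10 symbols were found once each, and all 10 passed the filter on low counts. The tissue sequenced was the ipsilateral side of the lumbar enlargement, freed of meninges, from adult female Wistar rats on day 14 after inoculation. In the BCP (bone cancer pain) group, living Walker 256 cells, a rat mammary carcinoma line, had been injected into the marrow cavity of the left tibia. In the sham group, heat-killed cells of the same line had been injected, so both groups underwent the operation and received tumor cell material. Each group had 3 libraries. The labels do not say how many rats each library represents, so the p-values measure only the spread between these libraries.

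TAM receptors are tyrosine kinases on the cell surface that recognise dying cells through a bridge. Gas6 and protein S (encoded by Pros1) bind phosphatidylserine on the dying cell at their N-terminal end and the receptor at the opposite end, and binding starts engulfment and dampens inflammatory signaling. Mfge8 bridges phosphatidylserine to integrins in the same way, whereas scavenger receptors take up modified lipoproteins, glycoproteins, hemoglobin complexes and debris. In the central nervous system, Mertk and Axl are known from microglia and macrophages, among other cells. Tyro3 is known from neurons and oligodendrocytes, and Mrc1 and Cd163 from macrophages at vessels and meninges.

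Msr1 and Axl were the 2 genes of the 10 that rose more than 2-fold in BCP rats, by 30.0-fold and 3.58-fold. Mertk and Pros1 rose by less, 1.45-fold and 1.55-fold, and Tyro3, Gas6 and Mfge8 fell by 17.7%, 12.5% and 16.3%. Mrc1, Cd163 and Cd36 passed no threshold. A gene was called at an adjusted p-value under 0.05 in edgeR's quasi-likelihood test, with Benjamini-Hochberg adjustment over the 14908 genes tested, and a change of more than 2-fold. By that rule 2 of the 10 genes were called higher and 0 lower, against 6.35% and 0.107% of all genes tested. Msr1, with 11, 3 and 0 counts in sham, passed the filter on low counts only through its BCP libraries. By the adjusted p-value alone 4 of the 10 were higher and 3 lower, against 15.8% and 12.1% of all genes tested. The libraries of the groups did not overlap for 7 of the 10 genes. BCP lay above sham for 4 of them and below for 3, against 21.7% and 19.8% of all genes tested. In RNA of whole tissue, a change in the number of cells of a type and a change in RNA per cell cannot be told apart.

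**Figure D1:**
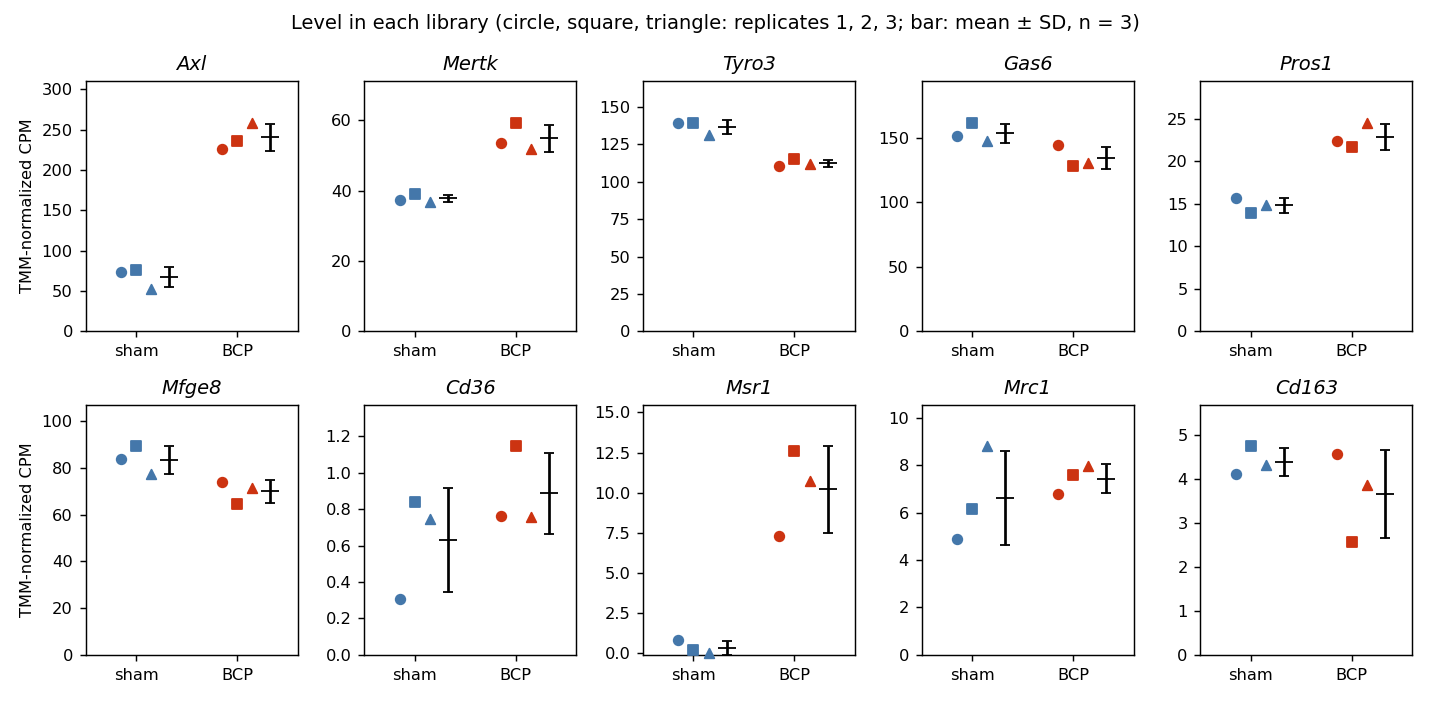
Level of each of the 10 genes in TMM-normalized CPM (linear vertical axes that differ between panels) in the 3 sham libraries (blue) and 3 BCP libraries (red), with bars at the mean ± SD. The groups are apart for Axl, Mertk, Pros1 and Msr1, with BCP above, and for Tyro3, Gas6 and Mfge8, with BCP below, and they overlap for Cd36, Mrc1 and Cd163.

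Libraries held between 11779485 and 15004290 counts on genes, with normalization factors from 0.982 to 1.02. The median log2 fold change of all genes tested was -0.01. Levels below are TMM-normalized CPM, the counts scaled to library size, unless FPKM is named. FPKM, which is per transcript length, was used wherever levels of different genes were compared.

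The TAM receptors moved in both directions. Axl (chromosome 1, 82549420 to 82580761 in Rnor_6.0) was at 73.1, 75.8 and 52.6 CPM in the sham libraries and at 226, 236 and 258 CPM in the BCP libraries. Every BCP library was far above every sham library, and sham replicate 3 was the lowest of all. The mean rose from 67.2 ± 12.7 CPM to 240.3 ± 16.5 CPM (SD, n = 3 each), a log2 fold change of 1.84 ± 0.16 (SE), with an adjusted p = 0.00147 in edgeR's quasi-likelihood test. The 95% interval of the log2 fold change ran from 1.41 to 2.28. Axl ranked 541 of the 14908 genes tested by its log2 fold change.

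Mertk, the receptor best known for the clearance of dying cells by resident macrophages, lies on chromosome 3 (121235119 to 121342444). It was at 37.4, 39.0 and 36.9 CPM in sham and at 53.5, 59.3 and 51.9 CPM in BCP. The sham libraries were close to each other, and all BCP libraries were above them. The mean rose from 37.8 ± 1.08 to 54.9 ± 3.88 CPM (SD, n = 3 each), a log2 fold change of 0.54 ± 0.07 with an adjusted p = 1.26e-05 (edgeR). The interval, 0.39 to 0.70, lay below a doubling.

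Tyro3, also on chromosome 3 (111597102 to 111616142), went the other way. It was at 139.6, 139 and 131 CPM in sham and at 111, 115 and 112 CPM in BCP, and every BCP library was below every sham library. The mean fell from 137 ± 4.75 to 112 ± 2.32 CPM (SD, n = 3 each), a log2 fold change of -0.28 ± 0.05 with an adjusted p = 0.00023 (edgeR). The interval ran from -0.39 to -0.18.

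**Figure D2:**
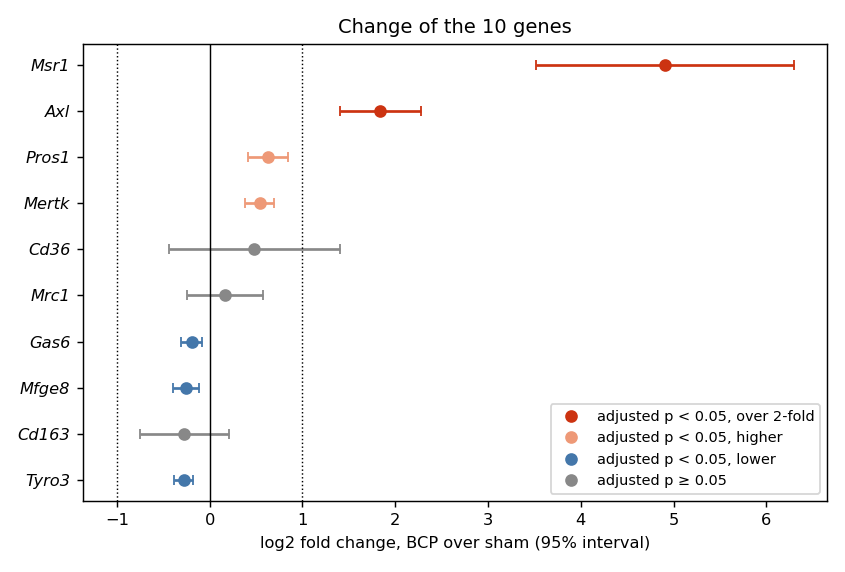
Log2 fold change of each of the 10 genes, BCP over sham, from edgeR, with its 95% interval. Dotted lines mark a 2-fold change in either direction. The intervals of Msr1 and Axl lie wholly beyond the line at 2-fold, those of Pros1, Mertk, Gas6, Mfge8 and Tyro3 lie between 0 and 2-fold, and those of Cd36, Mrc1 and Cd163 span 0.

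With these opposite changes, the makeup of the TAM receptor mRNA also differed between groups. Summed over the 3 receptors, FPKM was 59.3, 60.5 and 53.1 in sham and 87.5, 93.3 and 95.5 in BCP. Tyro3 made up the largest share in every sham library and Axl in every BCP library. The share of Axl in the summed FPKM was 24.6%, 25.2% and 19.9% in sham and 52.8%, 52.4% and 56.1% in BCP, and that of Tyro3 went from 62.8% ± 2.27 to 33.2% ± 1.09 (SD, n = 3 each). Mertk held 13.9% ± 0.729 and 13.01% ± 1.01, and its shares in the groups overlapped. The exact two-sided permutation test gave p = 0.1 for Axl and for Tyro3, which is the smallest that 3 against 3 libraries allow, and p = 0.4 for Mertk. Adjusted over the 8 shares tested in the receptor, ligand and scavenger classes, these were 0.133, 0.133 and 0.457, so the shares are a description.

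The ligands also moved in both directions. Gas6, the ligand of all TAM receptors (chromosome 16, 81213364 to 81243757), was at 151, 162 and 148 CPM in sham and at 144, 129 and 131 CPM in BCP. BCP replicate 1 came close to the lowest sham library, without overlap. The mean fell from 154 ± 7.31 to 135 ± 8.55 CPM (SD, n = 3 each), a log2 fold change of -0.19 ± 0.05 with an adjusted p = 0.0118 (edgeR) and an interval from -0.31 to -0.08. The call was lost without sham replicate 2, BCP replicate 2 or BCP replicate 3, where the log2 fold change was -0.15, -0.16 and -0.17 and the adjusted p in edgeR was 0.0706, 0.0729 and 0.0541. It was also lost in a limma test of log2(FPKM + 1), at -0.15 and an adjusted p = 0.0977.

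Pros1 encodes protein S, a vitamin K-dependent plasma protein that is a ligand of Mertk and Tyro3. The table places it on chromosome 7 (1206648 to 1288134), while RefSeq's GRCr8 annotation has it on chromosome 11. It was at 15.6, 13.9 and 14.9 CPM in sham and at 22.4, 21.7 and 24.5 CPM in BCP, with all BCP libraries above all sham libraries. The mean rose from 14.8 ± 0.869 to 22.9 ± 1.49 CPM (SD, n = 3 each), a log2 fold change of 0.63 ± 0.10 with an adjusted p = 8.59e-05 (edgeR) and an interval from 0.41 to 0.84. Gas6 remained the larger part of the ligand mRNA by FPKM, at 90.6% ± 0.836 in sham and 84.5% ± 1.26 in BCP (exact permutation p = 0.1, adjusted 0.133, n = 3 each). The summed FPKM of both ligands was 47.8 ± 1.95 in sham and 46.1 ± 2.12 in BCP, and the groups overlapped.

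Mfge8, on chromosome 1 (140845465 to 140860894), was at 83.9, 89.3 and 77.5 CPM in sham and at 74.0, 64.6 and 71.4 CPM in BCP. All BCP libraries were below all sham libraries, by a narrow margin. The mean fell from 83.6 ± 5.88 to 70.0 ± 4.85 CPM (SD, n = 3 each), a log2 fold change of -0.26 ± 0.07 with an adjusted p = 0.00636 (edgeR) and an interval from -0.40 to -0.12. Without BCP replicate 2 it was -0.20 with an adjusted p = 0.0512 in edgeR, and in a limma test of log2(FPKM + 1) it was -0.21 with an adjusted p = 0.0631, both short of the threshold.

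**Figure D3:**
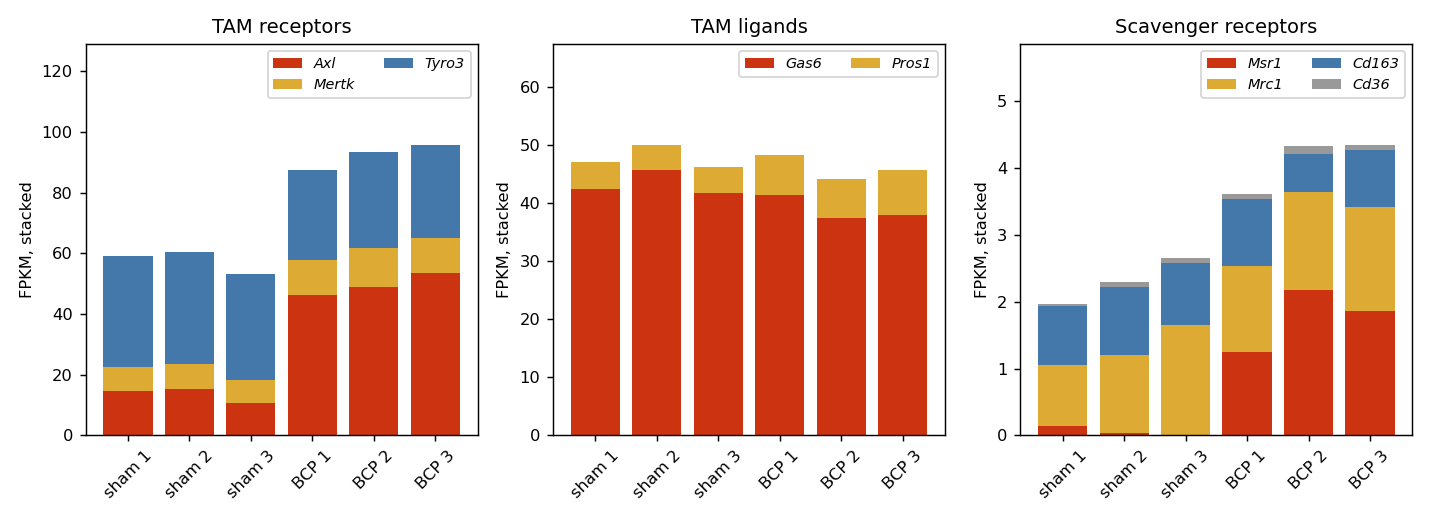
FPKM of the TAM receptors, the TAM ligands and the 4 scavenger receptors, stacked for each of the 6 libraries on linear axes that start at 0 and differ between panels. Axl (red) grows from 23.3% to 53.8% of the receptor total and Msr1 (red) from 2.90% to 42.6% of the scavenger receptor total in the group means, a difference of 39.7 percentage points that is 17.1 with 1 FPKM added to each gene, while Gas6 (red) stays the larger ligand in every library.

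Among the scavenger receptors only Msr1 passed a threshold. Msr1, the class A macrophage scavenger receptor for modified lipoproteins (chromosome 16, 56813791 to 56900052), was almost undetected in sham, with 11, 3 and 0 counts, and had 86, 176 and 142 counts in BCP. In CPM these were 0.839, 0.210 and 0 in sham and 7.27, 12.6 and 10.8 in BCP. The lowest BCP library was well above the highest sham library. The mean rose from 0.349 ± 0.437 to 10.2 ± 2.70 CPM (SD, n = 3 each), a log2 fold change of 4.91 ± 0.58 with an adjusted p = 0.000729 (edgeR) and an interval from 3.52 to 6.29. The size of the fold change rests on few sham counts. It was 6.51 on the log2 scale without sham replicate 1, which held 11 of the sham counts, and 4.30 without sham replicate 3, which held 0, and the call held in both. By log2 fold change Msr1 ranked 68 of the 14908 genes tested.

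Mrc1, the macrophage mannose receptor (chromosome 17, 81352700 to 81433743), was at 4.88, 6.15 and 8.78 CPM in sham and at 6.76, 7.58 and 7.95 CPM in BCP. The highest of all 6 libraries was sham replicate 3, and the groups overlapped. The log2 fold change was 0.17 ± 0.19 with an adjusted p = 0.587 (edgeR) and an interval from -0.24 to 0.57, and it was -0.01 without sham replicate 1. A change of 2-fold in either direction lies outside that interval, but smaller changes in both directions lie inside it.

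Cd163, the receptor for haptoglobin-hemoglobin complexes (chromosome 4, 156752082 to 156785467), was at 4.12, 4.75 and 4.32 CPM in sham and at 4.57, 2.57 and 3.86 CPM in BCP. BCP replicate 2 was low, BCP replicate 1 lay within the sham range, and the groups overlapped. The log2 fold change was -0.27 ± 0.23 with an adjusted p = 0.423 (edgeR) and an interval from -0.75 to 0.20.

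Cd36, a receptor for oxidized lipids and fatty acids (chromosome 4, 14001761 to 14249718), had 4, 12 and 11 counts in sham and 9, 16 and 10 in BCP, which overlap. Its log2 fold change was 0.48 ± 0.44 with an adjusted p = 0.466 (edgeR) and an interval from -0.44 to 1.41, which includes both no change and a 2-fold rise. Its span holds RGD1565355 and LOC685953, which had 0 to 3 and 0 counts in a library, and how the counting treated reads that fall in overlapping genes is not given in the sources used here.

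The order of the 10 genes by FPKM changed at its top. In sham, Gas6 came first at 43.3 ± 2.15 FPKM, followed by Tyro3 at 36.1 ± 1.22, Mfge8 at 30.2 ± 2.15, Axl at 13.5 ± 2.55, Mertk at 8.01 ± 0.245 and Pros1 at 4.50 ± 0.248 FPKM (SD, n = 3). The scavenger receptors followed, with Mrc1 at 1.24 ± 0.377, Cd163 at 0.940 ± 0.0720, Msr1 at 0.0584 ± 0.0728 and Cd36 at 0.0572 ± 0.0260 FPKM. The libraries of neighbouring genes in this order overlapped for Mrc1 and Cd163 and for Msr1 and Cd36, so these are not ordered beyond their spread. In BCP, Axl moved from the fourth place to the first, at 49.6 ± 3.74 FPKM, above Gas6 at 39.0 ± 2.17, Tyro3 at 30.6 ± 0.797, Mfge8 at 26.0 ± 1.68, Mertk at 11.98 ± 0.870 and Pros1 at 7.15 ± 0.494 FPKM. Msr1 moved to the seventh place at 1.76 ± 0.475 FPKM, where it overlapped with Mrc1 at 1.44 ± 0.128, ahead of Cd163 at 0.806 ± 0.218 and Cd36 at 0.0829 ± 0.0210 FPKM. In the summed FPKM of the 4 scavenger receptors, Msr1 went from 7.15%, 1.54% and 0% in the sham libraries to 34.5%, 50.3% and 43.0% in the BCP libraries (exact permutation p = 0.1, adjusted 0.133). The difference of the group means was 39.7 percentage points, and 17.1 with 1 FPKM added to each gene.

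The promoters of the genes of the TAM system that rose, and that of Tyro3, which fell, are shown to set side by side the sequence around their starts. They are from RefSeq's GRCr8, a later build than that of the counts, and run 5′ to 3′ from 250 bases before to 50 bases after the gene's start, at chr1:90423960-90424259 on the minus strand for Axl and, on the plus strand, at chr3:136392324-136392623 for Mertk, chr11:13677049-13677348 for Pros1 and chr3:127231653-127231952 for Tyro3. Capitals mark matches to the motifs searched.
Axl: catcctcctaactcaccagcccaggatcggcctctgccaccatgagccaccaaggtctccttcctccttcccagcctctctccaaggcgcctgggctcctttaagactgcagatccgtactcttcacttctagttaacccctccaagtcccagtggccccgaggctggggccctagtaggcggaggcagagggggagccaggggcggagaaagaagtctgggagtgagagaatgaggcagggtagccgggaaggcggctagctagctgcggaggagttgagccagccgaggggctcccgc
Mertk: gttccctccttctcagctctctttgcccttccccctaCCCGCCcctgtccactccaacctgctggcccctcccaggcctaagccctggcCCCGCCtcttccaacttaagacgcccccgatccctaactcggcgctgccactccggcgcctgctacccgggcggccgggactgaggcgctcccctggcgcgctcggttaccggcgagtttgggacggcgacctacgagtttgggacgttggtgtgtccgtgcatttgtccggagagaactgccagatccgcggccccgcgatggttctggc
Pros1: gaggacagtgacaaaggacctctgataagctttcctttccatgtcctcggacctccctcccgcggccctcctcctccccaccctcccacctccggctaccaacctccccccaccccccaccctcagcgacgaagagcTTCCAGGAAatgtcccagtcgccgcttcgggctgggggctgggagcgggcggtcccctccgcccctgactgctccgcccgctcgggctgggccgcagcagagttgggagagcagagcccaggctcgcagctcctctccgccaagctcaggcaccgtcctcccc
Tyro3: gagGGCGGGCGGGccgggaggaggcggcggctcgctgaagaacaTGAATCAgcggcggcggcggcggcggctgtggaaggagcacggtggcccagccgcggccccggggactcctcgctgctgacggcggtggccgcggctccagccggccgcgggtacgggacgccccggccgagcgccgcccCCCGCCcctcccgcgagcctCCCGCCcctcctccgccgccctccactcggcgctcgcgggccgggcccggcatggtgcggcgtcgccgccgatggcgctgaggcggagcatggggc

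The motifs were searched by their letters on both strands in the 9 of the 10 genes that had a promoter entry. They were GAGGAAGT for PU.1, the macrophage lineage factor, TTCNNNGAA for STAT factors, GAAANNGAA for interferon regulatory factors, TGANTCA for AP-1 and the GC-rich hexamer CCCGCC. Of all 33465 promoters in the reference, 2.42%, 8.87%, 9.71%, 7.33% and 32.0% held them. The GC box, GGGCGG, is a different hexamer and was not searched. In the promoter of Axl none of the motifs searched was found. That of Pros1 held a STAT match that starts 113 bases before the gene's start. Mertk had 2 matches to CCCGCC, and Tyro3 had 4, of which 2 overlap each other, and an AP-1 match 206 bases before the start. Gas6 had 5 matches to CCCGCC, of which 2 overlap each other, and Mfge8, Cd36, Mrc1 and Cd163 had no match to any motif searched. The G and C content was 63.0% for Axl, 67.3% for Mertk, 69.0% for Pros1 and 81.3% for Tyro3, against 45.7%, 51.0% and 41.7% for the scavenger receptors Cd36, Mrc1 and Cd163. The TAM receptor promoters held 11, 27 and 49 CpG sites for Axl, Mertk and Tyro3.

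The gene table's own annotation separates the bridged system from the scavengers only in part. Endocytosis was annotated to 9 of the 10 genes, of 439 genes with that term, and apoptotic cell clearance to Axl, Mertk, Tyro3, Gas6 and Mfge8, of 24 genes. Scavenger receptor activity was annotated to Msr1 and Cd163, of 49 genes. Pros1, Mrc1 and Cd36 had neither this term nor apoptotic cell clearance.

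Long noncoding RNA (lncRNA) transcripts inside Axl and Msr1 rose with their host genes. Within 10 kb of the 10 genes lay 12 lncRNA transcripts, beside or inside 7 genes, and 9 of them were tested. Of these, 5 were called higher and 0 lower, against 1.22% of the 12157 lncRNAs tested called in either direction, and 6 had an unadjusted p under 0.05. All 5 lie within the span of their host gene, which is why their counts and those of the host gene may hold the same reads. The libraries were made with a stranded kit, but whether the counting used strand is not given in the sources used here, so reads of a transcript and of its host gene cannot be told apart.

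The Axl gene holds 4 of them. NONRATT002423.2 (chromosome 1, 82565282 to 82566156) had 41, 27 and 23 counts in sham and 76, 94 and 96 in BCP, a log2 fold change of 1.67 ± 0.26 with an adjusted p = 0.0203 (edgeR). NONRATT002421.2, NONRATT002422.2 and NONRATT002420.2 had log2 fold changes of 2.12 ± 0.36, 1.85 ± 0.25 and 2.60 ± 0.48, with adjusted p-values of 0.0273, 0.0111 and 0.0369. All BCP libraries were above all sham libraries for each of these. Inside Msr1, NONRATT012026.2 (chromosome 16, 56855254 to 56865600) had 4, 2 and 0 counts in sham and 23, 33 and 28 in BCP, a log2 fold change of 3.85 ± 0.60 with an adjusted p = 0.0185 (edgeR).

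The calls of these lncRNAs were not stable. Of the 5, 3, 0 and 2 were called without sham replicates 1, 2 and 3, and 3, 1 and 0 without BCP replicates 1, 2 and 3, while all 5 kept a log2 fold change over 1 in those fits. With no filter on low counts 2 were called, and in the test against a fold change of 2 the number was 0. The transcript inside Mertk, NONRATT019681.2, had 9, 13 and 8 counts in sham and 15, 21 and 23 in BCP, a log2 fold change of 1.10 ± 0.33 with an adjusted p = 0.184 (edgeR). Those inside Tyro3, NONRATT018488.2 and NONRATT018489.2, had log2 fold changes of -0.19 ± 0.36 and -0.43 ± 0.35, with adjusted p-values of 0.892 and 0.677. NONRATT020886.2, inside Cd163, ranged from 0 to 30 counts among the sham libraries, with a log2 fold change of 0.40 ± 1.09 and an adjusted p = 0.931.

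**Figure D4:**
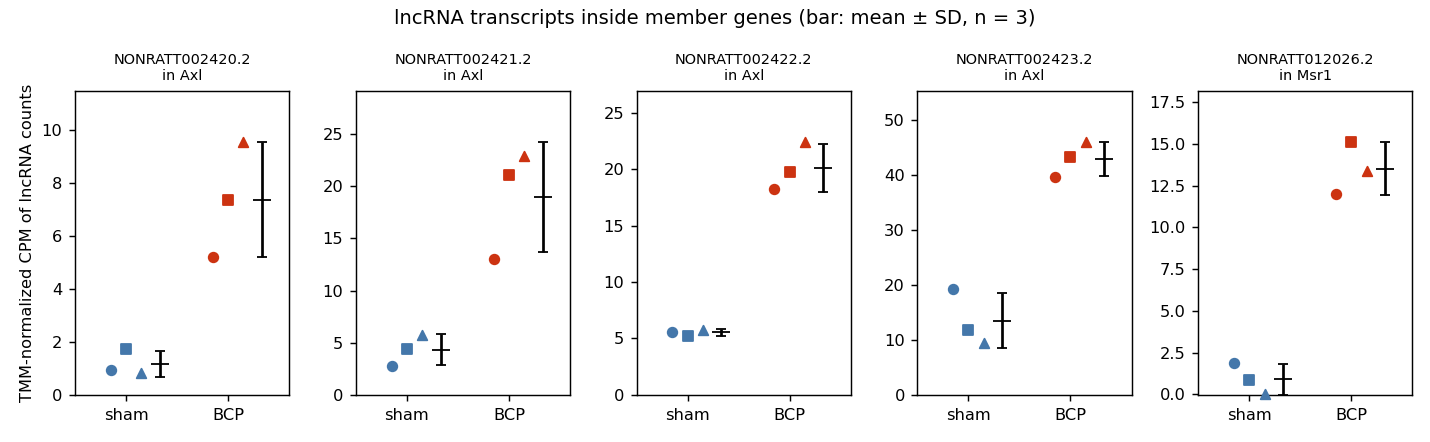
TMM-normalized CPM, over the lncRNA table, of the 5 called lncRNA transcripts that lie inside Axl and Msr1, for the 3 sham (blue) and 3 BCP (red) libraries, with bars at the mean ± SD (linear axes that differ between panels). All BCP libraries are above all sham libraries in each panel.

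The other genes of the clearance of dying cells were read from lists beside the 10 genes. Of 29 tested receptors and bridges, 11 were called higher and 0 lower, against 6.35% and 0.107% of all genes tested. By the adjusted p-value alone 16 were higher and 4 lower. These are shares of 55.2% and 13.8%, against 15.8% and 12.1% of all genes tested, so the share lower was near that of all genes. The median log2 fold change of the receptors and bridges was 0.52, against -0.01 over all genes tested. Itgb2, the beta chain of complement receptor 3, rose from 12.8 ± 2.24 to 60.5 ± 7.18 CPM (SD, n = 3 each), a log2 fold change of 2.25 ± 0.12. Cd300lf, a receptor for phosphatidylserine and ceramide, Tyrobp, the signaling adaptor of Trem2, and Lgals3, which bridges cells to Mertk, had log2 fold changes of 2.27 ± 0.17, 2.20 ± 0.15 and 1.69 ± 0.19. The C1q chains C1qa, C1qb and C1qc, which opsonize dying cells and were picked after their values were seen, rose by 2.24, 2.43 and 2.88 on the log2 scale. Adgrb1 and Edil3, which bind phosphatidylserine and were also picked after their values were seen, fell by 0.38 and 0.29 on the log2 scale, as Gas6 and Mfge8 did. Trem2 itself was at 2.88 CPM in sham and 4.12 CPM in BCP, with an adjusted p = 0.14 (edgeR).

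Of 16 tested other scavenger receptors, 6 were called higher and 0 lower, against 6.35% and 0.107% of all genes tested, with a median log2 fold change of 0.19. Clec7a, the beta-glucan receptor dectin-1, had 4 to 5 counts in each sham library and 338 to 519 in each BCP library, a log2 fold change of 6.77 ± 0.21. Cd68, a lysosomal protein of macrophages, rose from 2.10 ± 0.457 to 26.6 ± 1.85 CPM, Olr1, the receptor for oxidized LDL, from 3.01 ± 0.396 to 34.7 ± 6.34 CPM, and Ly75 from 9.46 ± 1.49 to 21.8 ± 2.37 CPM (SD, n = 3 each). Without BCP replicate 3, 1 gene of this list was called lower.

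In the engulfment machinery, 5 of 22 tested genes were called higher and 0 lower, against the same 6.35% and 0.107%, with a median of 0.03. Among the genes called were Rac2, a GTPase of blood cells, at a log2 fold change of 3.36 ± 0.16, Vav1, its exchange factor, at 2.90 ± 0.17, Was, the actin regulator of Wiskott-Aldrich syndrome, at 2.29 ± 0.19, and Arpc1b, a subunit of the Arp2/3 complex, at 2.12 ± 0.15. Of 21 tested genes of lipid handling after engulfment, 1 was called higher, a share of 4.76%, near the 6.35% of all genes tested, and the median was 0.06. The gene called was the mitochondrial carrier Ucp2, at 1.63 ± 0.08. Plin2 and Soat1, of lipid droplets and cholesterol esters, lay just under the threshold at 0.98 and 0.97, and were picked after their values were seen. By the adjusted p-value alone, 6 of the 21 genes were higher and 4 lower. These are shares of 28.6% and 19.0%, against 15.8% and 12.1% of all genes tested. The number called in this list was 2, 2 and 1 without sham replicates 1, 2 and 3, and 3, 1 and 2 without BCP replicates 1, 2 and 3.

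Among 17 tested rows of the proteases that cleave TAM receptors, their feedback and phosphatidylserine exposure, 2 were called higher and 0 lower, against 6.35% and 0.107% of all genes tested, with a median of 0.07. Socs3 and Socs1, the suppressors of cytokine signaling that TAM receptors induce, rose by 2.93 ± 0.30 and 2.88 ± 0.49 on the log2 scale, from 0.613 and 0.291 CPM in sham. The sheddases Adam17 and Adam10 had log2 fold changes of 0.32 and 0.23 with adjusted p-values of 0.000441 and 0.00185 (edgeR). Ggcx, the carboxylase that Gas6 and protein S need for binding phosphatidylserine, fell by 0.28 on the log2 scale with an adjusted p = 0.0282. These were also picked after their values were seen.

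**Figure D5:**
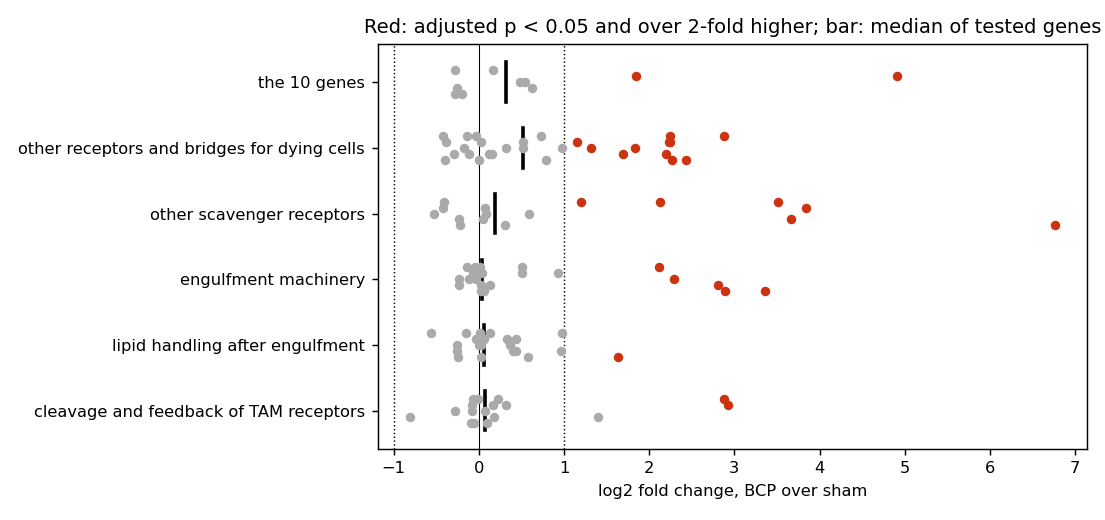
Log2 fold change, BCP over sham, of the 10 genes and of the tested genes of 5 lists, 1 point per gene, with a bar at each list's median and dotted lines at a 2-fold change. The called genes (red) all lie on the side of BCP, while the medians lie between 0.03 and 0.52.

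Markers of the cells known for these receptors moved with the groups, and their part in the changes above was not tested. For the counts of markers called higher, the share over all genes tested was 6.35%. Microglia markers summed to between 419 and 503 CPM in sham and between 949 and 1108 CPM in BCP, with 6 of 14 tested called higher and a median log2 fold change of 0.66, led by level by Csf1r, Sall1 and C1qa. Siglech was at 0 in every library. Perivascular macrophage markers summed to between 53.2 and 59.7 CPM in sham and between 74.6 and 95.3 CPM in BCP, with 2 of 8 tested called higher, Siglec1 and Clec10a, and a median of 0.27. Vsig4 and Cd209b were at 0, and the most abundant markers, Dab2 and Stab1, had log2 fold changes of 0.21 and -0.03, beside 0.17 and -0.27 for Mrc1 and Cd163. Markers of monocytes and neutrophils summed to between 401 and 428 CPM in sham and between 615 and 682 CPM in BCP. Of the 7 tested, 4 were called higher, with a median of 1.66. Camp, Ccr2, Cd177, Mmp8, Mmp9, Ngp, Retnlg and S100a9 were too low to test, so the sums rest mainly on the rest of the list. T cell markers summed to between 7.57 and 8.08 CPM in sham and between 57.4 and 68.8 CPM in BCP. Of the 9 tested, 9 were called higher, with a median of 6.10. With sums this low in sham, a gene of this list could pass the filter on low counts through its BCP libraries alone. The count is therefore a description, and Cd5 and Cd8b were too low to test. The microglia list shares C1qa, Itgam, P2ry12 and Trem2 with the list of receptors and bridges, and the perivascular macrophage list shares Stab1 with it. The list of other scavenger receptors shares Lyve1, Cd5l and Cd209b with the perivascular macrophage list. It also shares Cd6, which was called higher, with the T cell list.

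Tyro3, Gas6 and Mfge8 fell beside many markers of oligodendrocytes, neurons and astrocytes. In that order, 11 of 12, 7 of 12 and 7 of 12 markers were lower by the adjusted p-value, against 12.1% of all genes tested. The median log2 fold changes of these markers were -0.36, -0.18 and -0.22. None of them was called at more than 2-fold, and 1 astrocyte marker, Gfap, was higher, at 0.80. Endothelial markers had a median of 0.04, those of pericytes and smooth muscle 0.12 and those of meninges and fibroblasts 0.01, with 0 called in these lists.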

How the data were processed

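RNA-seq counts and FPKM of 3 sham and 3 BCP libraries were used, with groups taken from the sample labels. After read filtering with Seqtk, the authors aligned with Hisat2 2.0.4 to the Rnor_6.0 build and obtained FPKM from Stringtie 1.3.0 (versions per the submitters' processing notes). The authors deposited raw counts and FPKM, side by side, for genes and for lncRNA transcripts. The counting program and its use of strand are not given in the sources used here.

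The counts of genes and of lncRNAs were each fitted in edgeR 4.0.16 (R 4.3.3) after its expression filter and TMM normalization, using the robust quasi-likelihood test with condition as the only term, and p-values were Benjamini-Hochberg adjusted over all features tested. The thresholds, an adjusted p under 0.05 and a change over 2-fold, follow the study. Shares were compared with exact permutation tests. DESeq2 1.42.0, limma 3.58.1, other normalizations and filters, a replicate block and leaving out each library were alternatives. The fit was tested on simulated data. Figures were drawn with matplotlib 3.10.9.

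The genes described and the lists were chosen with earlier results of these data known. All 10 genes and every tested lncRNA within 10 kb were named. In each pathway list, up to 4 called genes of the smallest p-values were named. Markers were named by level only for microglia (the 3 most abundant) and perivascular macrophages. The smallest library had 11779485 gene counts. CPM is the count over the TMM-scaled library total.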

Additional observations from a re-analysis of the deposited data

How the results depend on the processing

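Of the 10 genes, Axl, Msr1, Mertk, Pros1 and Tyro3 kept their direction and an adjusted p under 0.05 under every normalization and filter that tested them, DESeq2, both limma tests and without each library. Cd36, Mrc1 and Cd163 passed no threshold in any of these. With at least 10 counts required in every library Msr1 was not tested, so 1 of the 10 genes was called higher, the cleavage and feedback list had 0 called and the lncRNAs 2. With no filter on low counts 2 lncRNAs were called. By library size only, 3 lipid handling genes were called. Against a fold change of 2, Axl and Msr1 kept their calls, while Mertk (0.54), Tyro3 (-0.28), Gas6 (-0.19), Pros1 (0.63) and Mfge8 (-0.26) had an adjusted p of 1, 7 of the other receptors and bridges were called, and 0 lncRNAs. In limma, 1 gene of the 10 was lower by the adjusted p-value, Tyro3. Gas6 was at -0.15 with either pseudocount, with adjusted p-values of 0.0977 (1 FPKM) and 0.1 (0.1 FPKM), and Mfge8 at -0.21 with 0.0631 and 0.0642. These limma tests were not run on the lists or lncRNAs.

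Without each library in turn, the log2 fold changes ranged from 1.69 to 1.94 for Axl, from 4.30 to 6.51 for Msr1, from -0.24 to -0.15 for Gas6 and from -0.31 to -0.20 for Mfge8. The number of the 10 genes lower by the adjusted p-value ranged from 1 to 3 (1 without BCP replicate 2), the called lipid handling genes from 1 to 3, the other scavenger receptors called lower from 0 to 1, and the called lncRNAs from 0 to 3. Adding 1 FPKM to each gene moved the differences in share of the scavenger receptor total to -3.39 percentage points for Cd36, 17.1 for Msr1, -5.32 for Mrc1 and -8.41 for Cd163, from -0.41, 39.7, -18.0 and -21.2.

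The same replicate numbers in both groups did not pair the libraries: the deviations of same-numbered libraries correlated at -0.11, 0.04 and -0.04. With the replicate number as a block, no call among the 10 genes was lost, and 0 lncRNAs were called. Of the 18 called genes named from the 5 pathway lists (marker genes were not run), 16 kept an adjusted p under 0.05 under every alternative that tested them. The exceptions were C1qc with the block (0.0577) and Ly75 against a fold change of 2 (0.412). Depth limits Cd36 and the sham level of Msr1, whose libraries held at most 16 and 11 counts.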

Other observations

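Transcripts and genes that share the span of the 10 genes at levels too low to test were also read. RGD1565355, whose span overlaps Cd36, had 0 counts in each sham library and 3, 1 and 2 counts in the BCP libraries, and NONRATT020174.2, a lncRNA transcript inside Cd36, had 0 counts in each sham library and 1 in each BCP library. LOC685953, in the same span, was at 0 throughout. SNORA25, inside Mertk, had 0, 1 and 1 counts in sham and 1, 1 and 2 in BCP. The lncRNA transcripts NONRATT000497.2, 4260 bases from Axl, and NONRATT002790.2, 435 bases from Mfge8, had 1 to 2 and 2 to 4 counts in each library, so that no transcript outside a host gene's span had enough counts for a test.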
